A study of Mus musculus with 6 samples.

Results

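Far intergenic H3K9ac peaks of mouse lung endothelial cells are described here: 1029 of the 17901 peaks in the deposited table, or 5.75%. They were chosen by their deposited annotation alone. A peak counted if it was annotated as intergenic, if its centre lay more than 50 kb from the nearest transcription start, and if its detailed annotation named neither a CpG island nor a repeat element. Of 3959 intergenic peaks, 1442 lay beyond 50 kb, and 387 with a repeat and 26 with a CpG island were left out. The study profiled the mark by CUT&RUN, in which a tethered nuclease cuts out the DNA beside an antibody-bound protein and the fragments are sequenced. The labels give 3 WT libraries that are Cre-negative and 3 CSE-KO libraries that are Cre-positive. The gene Cth encodes CSE, short for cystathionine gamma-lyase, which makes cysteine. The comparison asks whether H3K9ac differed where CSE was deleted. The labels do not give the driver of Cre, the floxed allele, the age of the mice, or whether each library came from its own animal, so a p-value rests on the spread among libraries alone, part of which may be technical. Cth itself had no peak in the table, so the mark does not check the genotype labels.

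H3K9ac is acetylation of lysine 9 of histone H3. It is written by acetyltransferases of the GCN5 and PCAF kind from acetyl-CoA, removed by histone deacetylases, and found at active promoters and at active enhancers. Enhancers far from any gene can act on a promoter through looping of the chromatin, and the nearest gene is not always the one they act on. In the account below a gene name therefore marks the position of a peak and no more. Endothelial enhancers are known to be rich in sites for ETS factors, with GATA, SOX, AP-1 and KLF factors beside them.

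Some of these peaks lie over transcription starts that the deposited annotation did not use. RefSeq (GRCm38.p6) lists promoter windows, from 250 bases before to 50 bases after a start, on every chromosome that held these peaks but 18. On those chromosomes 34 of 977 far intergenic peaks (3.48%) overlapped a window, against 71 of 1749 intergenic peaks (4.06%) nearer than 50 kb under the same repeat rule. These 34 peaks met 40 windows of 34 genes, of which 34 windows belong to long noncoding RNAs and 6 to protein-coding genes. The windows of 4 of them are printed because they show what the distance rule lets in: the start under the highest peak of all, the highest peak over a noncoding start, a start with paired AP-1 letters, and a start in a cluster of peaks near an endothelial receptor gene. Each is read 5′ to 3′ on the strand of its gene, with capitals on the motifs named further on.

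Maml2 window, chr9:13297708-13298007, + strand: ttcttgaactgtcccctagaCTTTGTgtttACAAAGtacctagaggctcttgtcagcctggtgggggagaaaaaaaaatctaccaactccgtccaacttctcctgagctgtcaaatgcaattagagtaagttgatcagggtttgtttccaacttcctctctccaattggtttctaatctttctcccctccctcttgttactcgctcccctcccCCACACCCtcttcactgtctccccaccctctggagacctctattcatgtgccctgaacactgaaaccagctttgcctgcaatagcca
Gm35413 window, chr13:5803106-5803405, - strand: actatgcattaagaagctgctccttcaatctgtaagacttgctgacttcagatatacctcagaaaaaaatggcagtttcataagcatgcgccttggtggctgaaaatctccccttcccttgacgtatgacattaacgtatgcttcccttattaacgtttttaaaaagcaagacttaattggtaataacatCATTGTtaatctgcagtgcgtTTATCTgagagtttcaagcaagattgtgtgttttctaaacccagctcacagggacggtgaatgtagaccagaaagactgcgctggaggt
Gm40491 window, chr12:86833714-86834013, - strand: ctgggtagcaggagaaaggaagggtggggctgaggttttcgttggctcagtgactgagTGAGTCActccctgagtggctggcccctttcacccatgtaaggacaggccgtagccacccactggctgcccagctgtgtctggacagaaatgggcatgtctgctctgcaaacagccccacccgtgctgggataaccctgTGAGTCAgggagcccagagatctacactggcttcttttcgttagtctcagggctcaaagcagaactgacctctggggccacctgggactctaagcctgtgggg
Gm40124 window, chr3:115641677-115641976, - strand: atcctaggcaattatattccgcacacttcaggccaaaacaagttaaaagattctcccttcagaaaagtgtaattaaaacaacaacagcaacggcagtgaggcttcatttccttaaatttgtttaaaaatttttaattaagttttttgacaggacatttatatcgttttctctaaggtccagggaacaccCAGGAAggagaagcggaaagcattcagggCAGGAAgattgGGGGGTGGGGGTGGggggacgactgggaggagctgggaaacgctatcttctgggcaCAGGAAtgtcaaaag

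The Maml2 window has 2 SOX matches and 1 KLF match and a GC content of 48.0%. Maml2 encodes a Mastermind-like coactivator of Notch signalling. Its start lies in the far intergenic peak at chr9:13296839-13299314, which the deposited annotation assigned to Ccdc82 at 51.1 kb. The Gm35413 window holds 1 GATA and 1 SOX match, and its peak was assigned to 1700016G22Rik at 54.7 kb. The Gm40491 window holds 2 AP-1 matches, both TGAGTCA, under a peak assigned to Irf2bpl at 50.7 kb. The Gm40124 window holds 3 ETS and 2 overlapping KLF matches under a peak assigned to S1pr1, the endothelial receptor of sphingosine 1-phosphate, at 73.1 kb.

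Motifs were searched on both strands, and matches were allowed to overlap. The AP-1 letters TGANTCA stood in 8 of the 40 windows (20.0%), against 4.58% of the 8061 windows that any peak of the table overlapped and 7.81% of all 32851 windows. An ETS match, CAGGAA or its variant CCGGAA, stood in 57.5%, against 51.6% and 41.4% of the same sets. The KLF letters GGGNGTGG stood in 35.0%, against 22.3% and 17.6%. A SOX match, ACAATG or the variant ACAAAG, stood in 32.5%, against 17.6% and 28.6%. The GATA letters AGATAA stood in 10.0%, against 5.09% and 11.2%. The core of the CTCF motif stood in 0 of 40, against 0.558% and 0.326%. These shares are descriptions of windows that partly repeat the same start, and no test was made. The base composition differs between the sets too: the median GC content was 51.7% in the 40 windows, 62.0% in windows under any peak and 52.7% in all windows, and the median number of CpG was 6.5, 23 and 7. The kind of gene differs as well: 34 of the 40 windows belong to long noncoding RNAs, against 1049 of the 8061 and 11588 of the 32851. Rows annotated as CpG islands were left out by the rule. The part of that choice, and of the kind of gene, in these values was not tested.

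"Far intergenic" held for protein-coding genes more than for noncoding ones. Of the 977 peaks, 27 (2.76%) had a protein-coding RefSeq start within 50 kb, and the median distance to the nearest one was 136 kb. Counting every start that RefSeq lists, 440 (45.0%) lay within 50 kb, 163 within 10 kb and 48 within 1 kb, with a median of 54.3 kb. In 418 of those 440 the nearest start was that of a long noncoding RNA. Of all 1029 peaks, 251 (24.4%) lay in the body of a RefSeq gene, with 197 in a long noncoding RNA, 45 in a protein-coding gene and 10 in another kind, where a peak in 2 kinds counts in both. The share among nearer intergenic peaks was 28.5%. The table of starts is not complete (S1pr1 is not in it), so these distances are upper limits.

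**Figure D1:**
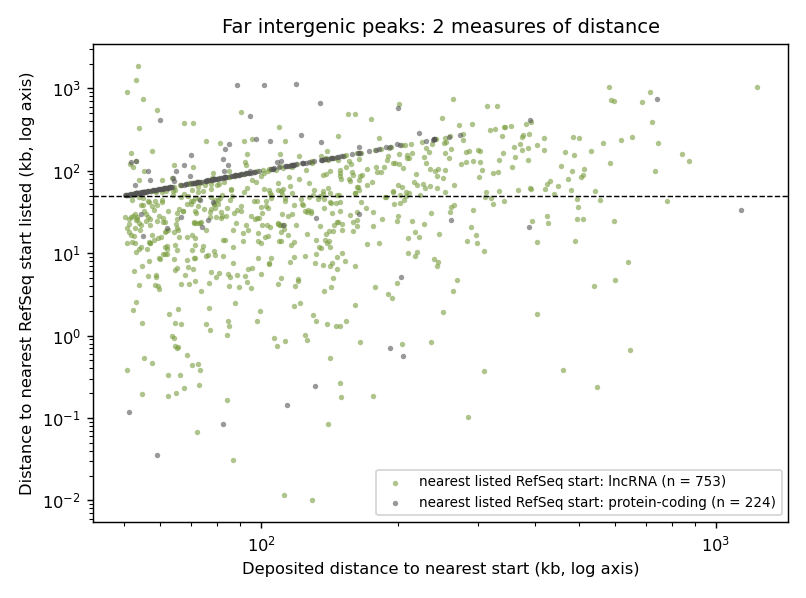
Each point is 1 of 977 far intergenic peaks, with the deposited distance to the nearest start on the x axis and the distance to the nearest listed RefSeq start on the y axis (kb, log axes). The dashed line marks 50 kb; the 440 points under it have a listed start closer than the rule's threshold, and in 418 of them that start belongs to a long noncoding RNA.

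The 1029 peaks were narrow and of low count. Their median width was 616 bp (quartiles 394 and 945 bp, range 237 to 2889 bp), against 601.5 bp for nearer intergenic peaks, 817 bp for all rows and 1119 bp for rows annotated as promoters. The median distance was 101 kb, with 510 peaks at 50 to 100 kb, 309 at 100 to 200 kb, 178 at 200 to 500 kb and 32 farther than 500 kb. They lay upstream of the nearest start in 546 cases and downstream in 483. The peaks were spread over 737 nearest genes, and 547 of those genes had 1 far intergenic peak.

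Depth limits what can be seen at a single peak. Total counts over all rows ran from 313610 to 676056 in the WT libraries and from 679938 to 1173016 in the CSE-KO libraries, so the groups did not overlap in depth. The median far intergenic peak had 8 to 19 counts in a WT library and 19 to 32 in a CSE-KO library. At 0 counts stood 3, 18 and 3 of the 1029 peaks in WT replicates 1 to 3, and 4, 0 and 0 in the CSE-KO replicates. Pearson's r of log2 CPM across these peaks was 0.59 to 0.80 for pairs of the same group and 0.58 to 0.76 for pairs of different groups, against 0.77 to 0.89 and 0.76 to 0.86 over all rows. These correlations run across peaks, which are not independent replicates. Endothelial marker genes were marked in the table more often than those of other lung cells: 62 of 74 endothelial genes had a peak, against 5 of 15 epithelial, 1 of 12 mesenchymal and 3 of 19 leukocyte genes. Ptprc, Sftpc and Pdgfrb had none. The 12 endothelial genes without a peak were Vwf, Plvap, Nrp1, Aplnr, Foxf1, Heyl, Sema3c, Tbx3, Car4, Kit, Cd36 and Tspan7. The 5 epithelial genes with a peak were Scgb1a1, Epcam, Cdh1, Krt8 and Krt18. Summed over all peaks of its genes, the endothelial list held 10463 to 10981 CPM in WT and 10204 to 10954 CPM in CSE-KO. The epithelial list held 320 to 350 CPM in WT and 290 to 332 CPM in CSE-KO. The mesenchymal list held 32.3 to 46.0 CPM and 21.9 to 50.8 CPM, and the leukocyte list 34.6 to 48.5 CPM and 41.5 to 56.5 CPM.

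Far intergenic peaks carried less H3K9ac per base than nearer intergenic ones. CPM is the count scaled to a common library size, and summed CPM was divided by summed width. The level was 49.2, 48.1 and 48.1 CPM per kb in the WT libraries and 47.7, 48.1 and 47.3 in the CSE-KO libraries. Nearer intergenic peaks stood at 54.5, 52.5 and 52.8 CPM per kb in WT and 52.9, 52.6 and 52.7 in CSE-KO. Every library had the lower value at the far peaks, and the ranges of the classes did not overlap. The mean ratio was 0.908 ± 0.0076 (SD, n = 6 libraries; exact sign-flip permutation test, two-sided, p = 0.031, the smallest 6 libraries allow, and 0.0391 after Benjamini-Hochberg adjustment over 5 such comparisons). Against all rows the mean ratio was 0.793, and against promoter rows it was 0.731, both lower in 6 of 6 libraries with the same p. The 6 libraries share the same peak list, whose widths were set by the authors' calling.

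Beyond the threshold, the level of the peaks in the table varied little with distance. The median peak held 44.6 CPM per kb at 50 to 100 kb, 43.9 at 100 to 200 kb, 42.9 at 200 to 500 kb and 45.1 farther out. Spearman's rho between distance and CPM per kb across the 1029 peaks was -0.047, while width and CPM had a rho of 0.90. These are descriptions across peaks that share libraries, and peaks low per length appear to be missing at every distance. The 34 peaks over a RefSeq promoter window held more: 55.8 ± 2.91 CPM per kb, against 47.9 ± 0.755 for the 735 in no RefSeq gene (SD, n = 6 libraries). It was higher in 6 of 6 libraries (exact sign-flip permutation test, two-sided, p = 0.031, adjusted 0.0391). The 34 include the highest far intergenic peak of all, over the Maml2 start with 254 CPM. How much of the difference rests on that peak was not tested, and the p over libraries does not show it. Peaks inside a gene body but off a window held 47.1 CPM per kb and were the lower in 5 of 6 libraries, a difference that did not pass (exact sign-flip permutation test, p = 0.156).

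**Figure D2:**
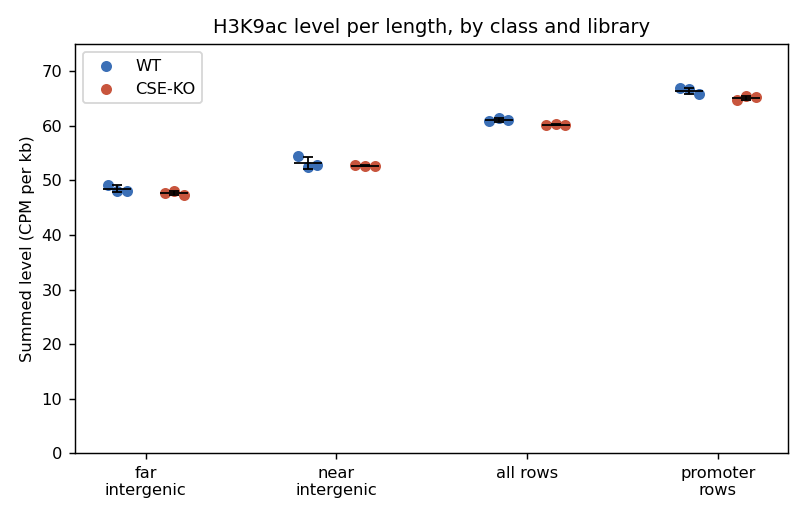
Summed CPM over summed width (CPM per kb, y axis from 0) for far intergenic, nearer intergenic, all and promoter rows, 1 point per library, with bars for the mean and SD of 3 libraries. The far intergenic points sit at 47.3 to 49.2 and below every other class in both groups.

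The 10 highest peaks had means of 121 to 254 CPM. The highest, over the Maml2 start printed above, had 228, 278 and 255 CPM in WT and 260, 281 and 223 CPM in CSE-KO. Its groups overlapped, and the means of 254 ± 24.8 and 254 ± 29.2 CPM gave a log2 fold change of 0.02 (SE 0.14). A peak at chr15:62327903-62329781, 109 kb upstream of H2afy3, had 249, 145 and 189 CPM in WT and 200, 159 and 182 CPM in CSE-KO, also overlapping. A peak inside the noncoding gene Gm4258, 66.6 kb from Mir181a-1, which encodes a miR-181 hairpin, had 123, 207 and 140 CPM in WT and 155, 174 and 156 CPM in CSE-KO.

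Transcription factor genes stood among these loci as well. The peak at chr9:63927249-63928756 lies 94.1 kb from Smad6, which encodes an inhibitor of BMP signalling. It had 170.5, 139 and 153 CPM in WT and 149, 137 and 188 CPM in CSE-KO, and its 104 CPM per kb was the highest per length of the 10. A peak at chr18:69196038-69198719, 147 kb from Tcf4, which encodes an E-protein of the basic helix-loop-helix kind, had 166, 123 and 156 CPM in WT and 176, 153.5 and 155 CPM in CSE-KO. Neither pair of groups was separate. The others lay near Mbd2, a methyl-CpG-binding protein, Lgalsl, Sgk1, a kinase induced by serum and glucocorticoids, and Afdn, the junction protein afadin, with log2 fold changes between -0.16 and 0.28.

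Among the 10, the groups were separate at 1 peak, which was lower in CSE-KO. Over all tested rows, separate groups were found at 6.09% on the higher side and 6.9% on the lower. It lies 60.7 kb from Irf2bpl, at chr12:86823270-86824941, inside the noncoding genes Gm32806 and Gm51955 and 9.66 kb from the start of Gm40491 printed above. It had 151, 200.4 and 166 CPM in WT and 115, 145 and 129 CPM in CSE-KO. The log2 fold change was -0.40 (SE 0.17, unadjusted p = 0.0264), and it did not pass after adjustment (edgeR quasi-likelihood test with Benjamini-Hochberg adjustment, adjusted p = 0.65). The peak over the Gm40491 window itself had a log2 fold change of -0.19 (SE 0.25).

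Far intergenic peaks were mostly scattered, with a few clusters. When peaks at most 12.5 kb apart were joined, 855 of the 934 resulting groups held 1 peak, and 79 held 2 or more, with 174 peaks (16.9%) among them. Clusters of 4 peaks, the largest size, were found at 3 places: over 28.4 kb near Sgk1, over 25.6 kb near Frmd6 and over 19.9 kb near S1pr1. The Sgk1 cluster had summed levels of 274, 220 and 156 CPM in WT and 217, 219 and 207 CPM in CSE-KO. The Frmd6 cluster, near a gene of the FERM-domain family, had 169, 136 and 151 CPM in WT and 151.5, 183 and 143 CPM in CSE-KO. The S1pr1 cluster had 199, 155 and 174 CPM in WT and 181, 165 and 201 CPM in CSE-KO. In none of these 3 were the groups separate (exact permutation test, two-sided, p = 0.60 to 0.80, where 3 against 3 libraries cannot go below 0.10). Of the clusters of 3 peaks, the 2 with the highest WT level lay near Hmga2, the gene of a chromatin protein of the HMGA family, and near Hs1bp3. The Hmga2 cluster had 219.5, 149 and 161 CPM in WT and 154, 145 and 132 CPM in CSE-KO, which overlap. The Hs1bp3 cluster had 135, 155 and 153 CPM in WT and 206.5, 165 and 168 CPM in CSE-KO. Its groups were separate, with the higher level in CSE-KO, and the exact permutation p was 0.10 (two-sided, 0.53 after Benjamini-Hochberg adjustment over the 8 clusters tested).

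The genes with most far intergenic peaks were Marcks with 8, Kdr, Fam43a and 1700016G22Rik with 7 each, and S1pr1 and 4930441H08Rik with 6 each. Kdr encodes the main VEGF receptor of endothelial cells. Its 7 peaks all lay downstream of the start, 50.5 to 164 kb away, and 6 of 7 had a log2 fold change under 0. Their summed level was 228, 210 and 206 CPM in WT and 209.9, 183 and 151 CPM in CSE-KO. CSE-KO replicate 1 lay between WT replicates 2 and 3, and the other CSE-KO libraries lay below all of WT. The means were 215 ± 12.03 and 181 ± 29.7 CPM (SD, n = 3). The exact permutation p was 0.20 (two-sided, 0.40 after adjustment over 6 genes), in a design where it cannot go below 0.10. The smallest p of the Kdr peaks was at chr5:75922855-75923275, with 14.8, 25.9 and 26.3 CPM in WT and 10.2, 7.31 and 13.0 CPM in CSE-KO. Its groups were separate, and the log2 fold change of -1.08 (SE 0.51) did not pass (edgeR quasi-likelihood test, Benjamini-Hochberg adjusted p = 0.68).

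S1pr1 had peaks on both sides of its start, 2 upstream and 4 downstream, 51.5 to 78.6 kb away. The highest of them by level per length was the 461 bp peak at chr3:115646958-115647418, with 122 CPM per kb. The summed level of the 6 was 274, 258.5 and 281 CPM in WT and 283.5, 275 and 291 CPM in CSE-KO (exact permutation test, two-sided, p = 0.20). Marcks encodes a membrane-bound substrate of protein kinase C, and 7 of its 8 peaks lay upstream, 199 to 465 kb from the start. The sums of the 8 peaks were 299.5, 271 and 235 CPM in WT and 253, 266 and 255 CPM in CSE-KO. Fam43a had sums of 259.5, 246 and 253 CPM in WT and 308, 251 and 279.5 CPM in CSE-KO. At 4930441H08Rik the sums were separate, with 181, 207 and 181 CPM in WT and 173, 148 and 174 CPM in CSE-KO, and the exact permutation p of 0.10 is the smallest the design allows (0.40 adjusted).

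**Figure D3:**
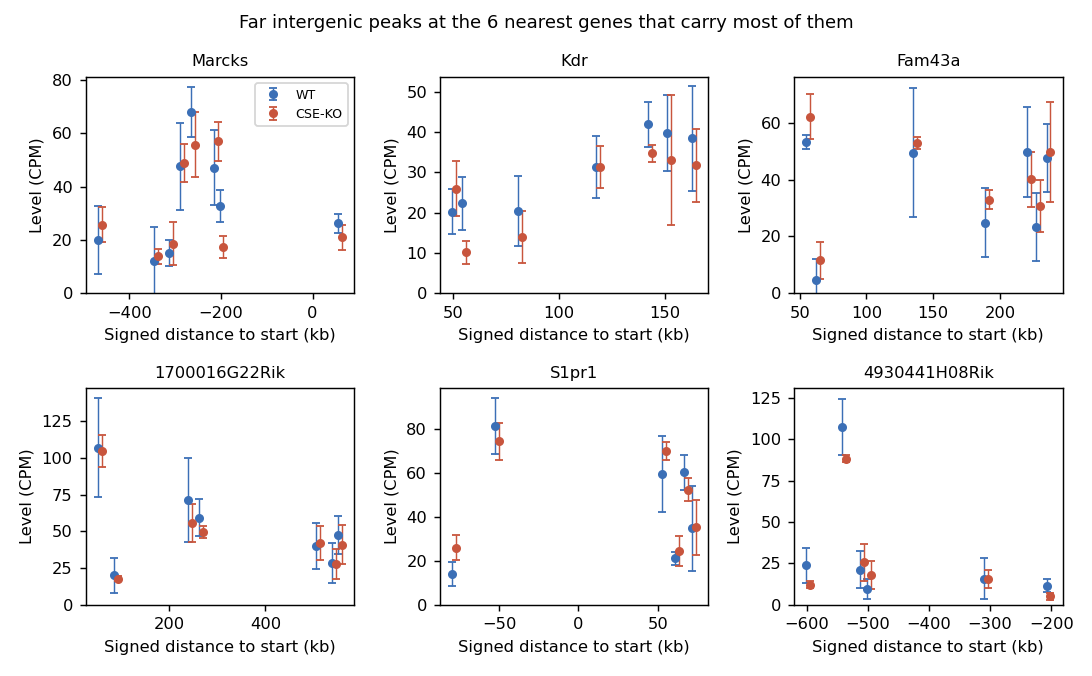
Mean CPM with SD (n = 3 libraries each, bars cut at 0) of every far intergenic peak at 6 genes, against signed distance to the deposited start (kb, negative upstream); the WT and CSE-KO points of a peak are set slightly apart. Kdr, Fam43a and 1700016G22Rik have all their peaks on the downstream side, and S1pr1 has 2 upstream and 4 downstream.

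Neither the share of counts at far intergenic peaks nor their level differed between CSE-KO and WT past the test. They held 3.60, 3.49 and 3.51% of all counts in the WT libraries and 3.53, 3.56 and 3.50% in the CSE-KO libraries, so the groups overlapped. The means were 3.54% ± 0.062 and 3.53% ± 0.027 (SD, 3 libraries a group, two-sided exact permutation p = 0.90). The level per kb was 48.5 ± 0.638 CPM in WT and 47.7 ± 0.411 CPM in CSE-KO (exact permutation test, two-sided, p = 0.20). In bulk cells, fewer cells with the mark at a place and less of the mark per cell cannot be told apart.

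Peak by peak, counts sufficed to test 862 of the 1029, and the other 167 were below the filter on low counts. The median log2 fold change of the 862 was -0.01, against -0.00034 over all 16134 tested rows, and 0.029 without WT replicate 1. It was under 0 in 442 of them (51.3%), and 79.7% lay within 0.5 of 0. With a median SE of 0.36, a change of 1 peak had to be large to be seen. At an adjusted p under 0.05, 1 of 862 passed (0.116%), where 14 of all tested rows (0.0868%) did. With the rows annotated as MuLV-int proviral sequence left out of the fit, 2 of all rows and 0 far intergenic peaks passed. At an unadjusted p under 0.05, 22 were higher in CSE-KO (2.55%, all rows 3.01%) and 41 lower (4.76%, all rows 4.07%). Separate groups were found at 52 peaks higher in CSE-KO (6.03%, all rows 6.09%) and 65 lower (7.54%, all rows 6.9%).

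The 1 peak that passed fell in CSE-KO cells. It is 266 bp wide, at chr16:58349847-58350112, 58.6 kb upstream of Dcbld2, which encodes a transmembrane receptor-like protein of vascular cells, and it lies in no RefSeq gene. It had 29.7, 29.1 and 28.0 CPM in WT and 6.77, 4.39 and 4.34 CPM in CSE-KO. The groups were far apart, but the values rest on 20, 9 and 17 counts in WT and 8, 3 and 3 counts in CSE-KO. From 28.9 ± 0.855 to 5.17 ± 1.39 CPM (SD, n = 3 each), the log2 fold change was -2.38 (SE 0.53, edgeR quasi-likelihood test, Benjamini-Hochberg adjusted p = 0.0451). The call is fragile. It was lost without any 1 of the 6 libraries (adjusted p 0.18 to 0.41), with the DESeq2 Wald test (0.0786), with limma voom (0.27), without a filter on low counts (0.0719) and without the MuLV-int proviral rows in the fit (0.0759).

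**Figure D4:**
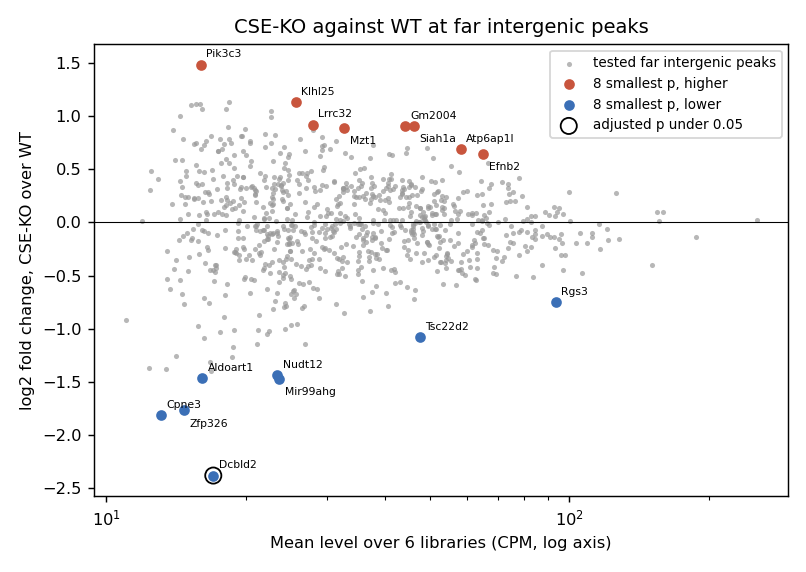
Log2 fold change of CSE-KO over WT against mean CPM (log axis) for the 862 tested far intergenic peaks in grey, with the 8 smallest p in each direction coloured and named by nearest gene. The ring marks the peak near Dcbld2 at -2.38, the 1 that passed adjustment, at a low mean of 17.0 CPM.

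The peaks with the next smallest p on the lower side did not pass. They were picked by p, so separate groups among them are no added support. Over all tested rows, 6.9% had separate groups that were lower in CSE-KO. The peak at chr3:58310515-58311445, inside the noncoding gene Gm32847 and 104 kb from Tsc22d2, had 59.3, 71.1 and 64.2 CPM in WT and 29.6, 35.1 and 26.1 CPM in CSE-KO. The groups were separate by more than their own spread, with a log2 fold change of -1.08 (SE 0.30, edgeR quasi-likelihood test, Benjamini-Hochberg adjusted p = 0.28). The peak at chr4:62731949-62733430, 58.7 kb from Rgs3, a gene of a regulator of G-protein signalling, was the most abundant of the 8, with 116, 139 and 102 CPM in WT and 79.5, 74.6 and 50.7 CPM in CSE-KO. Its groups did not overlap either (log2 fold change -0.75, SE 0.22, adjusted p = 0.37).

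The other 5 on that side had means of 13.1 to 23.7 CPM and separate groups. They lay near Mir99ahg, the host gene of a let-7 and miR-99 cluster (log2 fold change -1.48), Nudt12, an NADH-cleaving enzyme (-1.44), Cpne3, a copine (-1.81), Zfp326, a zinc-finger protein (-1.77), and Aldoart1, an aldolase copy of testis (-1.46). Their adjusted p was 0.42 to 0.56 by the edgeR quasi-likelihood test with Benjamini-Hochberg adjustment. At Zfp326 the CSE-KO libraries had 3.38, 16.1 and 1.45 CPM, and without CSE-KO replicate 2 the log2 fold change was -3.02.

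On the higher side none passed either. Those peaks were picked by p as well, and 6.09% of all tested rows had separate groups that were higher in CSE-KO. The peak at chr8:86807376-86808372, inside the noncoding gene Gm39215 and 61.9 kb from Siah1a, a ubiquitin ligase gene, had 22.2, 35.5 and 39.5 CPM in WT and 60.1, 55.5 and 63.7 CPM in CSE-KO. Its groups were separate, with a log2 fold change of 0.91 (SE 0.31, edgeR quasi-likelihood test, Benjamini-Hochberg adjusted p = 0.50). The peak 397 kb from Pik3c3, the class III phosphoinositide kinase gene, had 10.4, 3.23 and 9.87 CPM in WT and 28.8, 23.4 and 20.3 CPM in CSE-KO, again separate (log2 fold change 1.49, SE 0.51, adjusted p = 0.52). The value of WT replicate 2 rests on 1 count.

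The peak near Gm2004 overlaps the Gm14410 start on distal chromosome 2, where related zinc-finger genes lie in tandem and may share reads. It had 23.7, 29.1 and 37.8 CPM in WT and 36.4, 64.3 and 73.9 CPM in CSE-KO, and its groups overlapped (log2 fold change 0.90, adjusted p = 0.58, edgeR). The peak 387 kb from Efnb2, the gene of the arterial ligand ephrin-B2, had 63.8, 48.5 and 37.8 CPM in WT and 61.8, 101 and 78.2 CPM in CSE-KO, also overlapping (log2 fold change 0.64, adjusted p = 0.64, edgeR). The remaining 4 lay near Klhl25 (log2 fold change 1.14, with 0 counts in WT replicate 2), Lrrc32, whose protein binds latent TGF-beta (0.92), Mzt1 (0.89) and Atp6ap1l (0.69). Leaving out WT replicate 1 gave 1.95 at Klhl25, and leaving out WT replicate 2 gave 0.76 there. Groups were separate at Lrrc32 and Atp6ap1l and overlapped at Klhl25 and Mzt1.

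**Figure D5:**
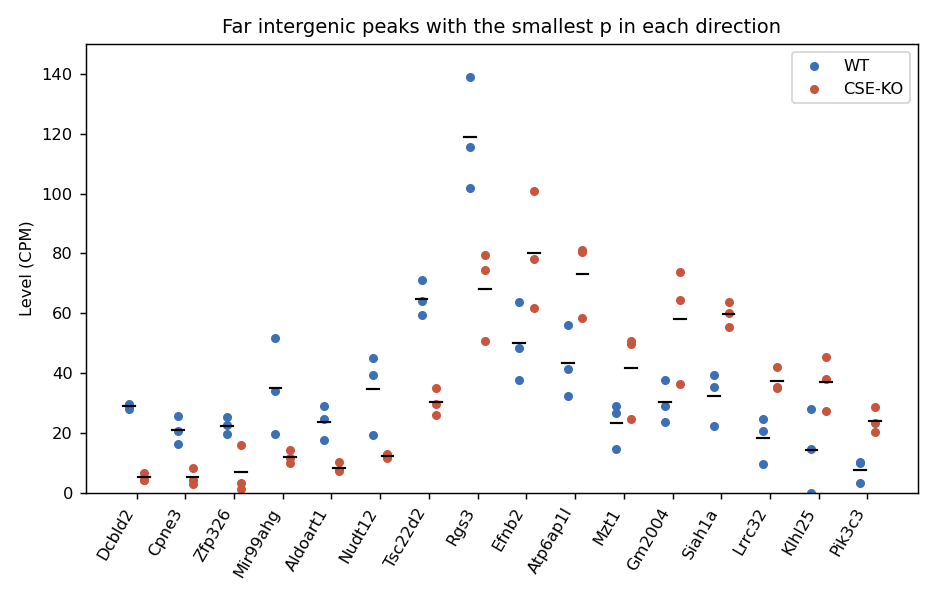
CPM in every library at the 16 far intergenic peaks with the smallest p, 8 in each direction, ordered by log2 fold change, with short lines at the group means. WT points lie above CSE-KO points at the 8 on the left without overlap, and the groups overlap at Efnb2, Mzt1, Gm2004 and Klhl25 on the right. Peaks were picked by p from these same libraries, so separation is no added support.

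Genes known in endothelial cells carried 30 far intergenic peaks. They were at 12 of the 74 genes of an endothelial list, so 2.92% of far intergenic peaks had such a nearest gene, against 1.11% of nearer intergenic peaks and 0.95% of all rows, shares that were not tested. Kdr and S1pr1 gave 13 of the 30. Efnb2, Klf4, a flow-induced transcription factor, and Jag1, a Notch ligand, had 3 each. Of the 26 tested, 0 passed in either direction by edgeR (DESeq2 and voom called 0 of all far intergenic peaks), 14 were under 0 and the median log2 fold change was -0.03, beside -0.00034 over all tested rows. At an unadjusted edgeR p under 0.05, 1 was higher (the Efnb2 peak above) and 1 lower (the Kdr peak above), where 3.01% and 4.07% of all tested rows were, so the count is near that of all rows.

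The highest endothelial-list peak lay at chr2:84184138-84186530, 240 kb from Calcrl, the receptor of adrenomedullin, with 72.7, 116 and 98.7 CPM in WT and 101.5, 77.5 and 116 CPM in CSE-KO. The Klf4 peak 201 kb upstream had 83.0, 58.2 and 54.3 CPM in WT and 88.0, 71.6 and 40.6 CPM in CSE-KO. The peak 99.8 kb from Tmem100, a gene of the BMP9 and ALK1 pathway, had 40.0, 61.4 and 39.5 CPM in WT and 78.7, 52.6 and 60.8 CPM in CSE-KO. All 3 pairs of groups overlapped, with log2 fold changes of 0.08, 0.04 and 0.53. A peak 203 kb from Nr2f2, the gene of the venous factor COUP-TFII, lay in the gene model Gm44812 and had a log2 fold change of 0.27 (SE 0.35).

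Transcription regulators of endothelium and of the immediate early response had 20 far intergenic peaks at 11 of 62 genes, with 3 each at Smad6, Klf4 and Jun. Of the 17 tested, 0 passed in either direction (0 also at an unadjusted edgeR p under 0.05), and the median log2 fold change was 0.03. Over all tested rows 0.0868% passed, and 3.01% were higher and 4.07% lower at the unadjusted threshold. With shares that small, 0 of 17 does not set these peaks apart. A second Smad6 peak 79.8 kb away had 87.5, 129 and 62.5 CPM in WT and 77.8, 86.2 and 79.6 CPM in CSE-KO. A peak 53.8 kb from Jun, an AP-1 subunit, lies in the noncoding gene Junos and had 84.5, 77.6 and 79.0 CPM in WT and 92.2, 61.4 and 91.2 CPM in CSE-KO. The Klf7 peak 184 kb upstream had 94.9, 77.6 and 93.8 CPM in WT and 74.5, 87.7 and 68.1 CPM in CSE-KO. In each of these the groups overlapped.

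Guidance, matrix and signalling genes had 15 far intergenic peaks at 11 of 61 genes. Of the 13 tested, 0 passed in either direction (0 also at an unadjusted edgeR p under 0.05), and the median log2 fold change was 0.02. Beside the same shares of all tested rows (0.0868%, and 3.01% and 4.07% unadjusted), 0 of 13 does not set these peaks apart either. A pair lay 195 and 205 kb from Sema6d, a membrane semaphorin, with log2 fold changes of -0.06 and 0.30. The peak 86.0 kb from Adgrl4, an adhesion G-protein-coupled receptor of endothelium, had 60.8, 58.2 and 59.2 CPM in WT and 33.9, 68.7 and 30.4 CPM in CSE-KO. It was even in WT and uneven in CSE-KO (log2 fold change -0.46, SE 0.30). The highest peaks near Dusp6, an ERK phosphatase (0.02), Sema3e, a repulsive semaphorin (-0.02), and Slit2, a Robo ligand (0.24), had log2 fold changes within their SE of 0. Dusp6 and Slit2 had 2 peaks each, and over the 13 tested the values ran from -0.51 to 0.73.

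The list of CSE and cystine handling had 2 far intergenic peaks. The peak 52.4 kb from Gclc, the catalytic subunit of the enzyme that starts glutathione synthesis, lies in the noncoding gene Gm34654 at chr9:77806718-77807164. It had 43.0, 32.3 and 28.0 CPM in WT and 21.2, 21.9 and 24.6 CPM in CSE-KO. The groups were separate, and the log2 fold change of -0.63 (SE 0.37) did not pass (edgeR quasi-likelihood test, Benjamini-Hochberg adjusted p = 0.77). The peak 58.7 kb from Nfe2l2, the gene of the oxidative stress factor NRF2, had 38.6, 19.4 and 19.8 CPM in WT and 22.9, 26.3 and 21.7 CPM in CSE-KO (log2 fold change -0.19, SE 0.40). By the deposited annotation, no far intergenic peak was nearest to a gene of the epithelial, mesenchymal or leukocyte lists. By the RefSeq starts, the nearest protein-coding one to the peak named by Mir181a-1 was that of Ptprc, on the leukocyte list, 275 kb away. Those 3 lists had only 10, 1 and 3 peaks of any kind by the deposited annotation, too few for a contrast.

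At the ends of the distance range, the farthest peak lay 1230 kb upstream of Slc10a2, a bile acid transporter gene, with 11.9, 35.6 and 26.3 CPM in WT and 27.9, 21.9 and 33.3 CPM in CSE-KO. A peak assigned to Fbxo33 at 1132 kb was below the count filter, and the RefSeq table lists a protein-coding start, Gm32936, 33.5 kb from it. A peak assigned to the potassium channel gene Kcna4 lay 870 kb downstream. Just inside the threshold stood peaks at 50219 bp from Tob1 and 50225 bp from Flrt2, with 57.4 and 25.1 CPM, and just outside it at 49989 bp from Glrx and 49854 bp from Kcnj6, with 31.4 and 15.7 CPM.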

How the data were processed

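H3K9ac CUT&RUN of isolated mouse lung endothelial cells gave 3 WT and 3 CSE-KO libraries, grouped by title. Per the submitters' processing notes, the authors' tools include STAR 2.7.11a and Trimmomatic 0.39, with Picard 3.1.1, DESeq2 1.36.0 and featureCounts also named. The sources used here do not name the peak caller. The authors deposited 1 table with raw counts of reads per peak and library. Row identifiers reach 23867 and the lowest deposited sum of RPKM is 167, so low peaks appear to have been filtered. Another 12 columns of normalized values were not used. Column names carry a numeric prefix that differs between WT and CSE-KO; if it marks a batch, batch and group cannot be told apart. The notes name mm39, but the coordinates follow GRCm38: of 2334 promoter rows with a gene found in RefSeq GRCm38.p6, 2304 (98.7%) lie within 1 kb of a start of that gene.

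Counts were scaled by TMM and tested in R 4.3.3 with edgeR 4.0.16, after its filterByExpr at a minimum count of 10: glmQLFit and glmQLFTest on the group, two-sided, Benjamini-Hochberg adjustment over 16134 rows, threshold 0.05. SE were taken from the F statistic. CPM are counts scaled to the total over all rows after TMM. Share and level per kb were compared by exact permutation over libraries. Alternatives used limma 3.58.1, DESeq2 1.42.0, other scalings and filters, a replicate block, each library left out, other distance limits, and repeats included. The code was checked on simulated counts. RefSeq tables of genes and promoter windows (none on chromosome 18) gave starts and sequences; no genome was used, so the planned motif search in the centres of peaks was made in promoter windows instead.

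Named peaks are those called, the 10 highest, the 8 smallest p in each direction, up to 12 near endothelial-list genes and up to 6 per other list, the 3 farthest, 2 on each side of the threshold, the largest clusters and the genes with most peaks. The members and lists were chosen with earlier results of these data known.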

Additional observations from a re-analysis of the deposited data

How the results depend on the processing

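Over all rows, 14 peaks passed with the settings used, against 9 with the DESeq2 Wald test, 8 at a mean count of 50 or more, 2 with the MuLV-int proviral rows left out of the fit (added after seeing the data), and 6 to 13 with 1 library left out. RLE scaling, library size alone, voom and no filter gave 14, 14, 13 and 12. Among far intergenic peaks the count of 1 became 0 with DESeq2 (64 at an unadjusted p under 0.05), voom (78), no filter (85), the MuLV-int rows left out (66) and each library left out (48 to 75). It was also 0 at a mean count of 50 (5 at an unadjusted p under 0.05) and at a distance above 100 kb, but those limits take out the called peak itself and say nothing of its stability. The peak near Dcbld2 kept its direction wherever it was tested, with log2 fold changes of -2.67 to -2.28 and adjusted p of 0.0454 to 0.41; it was called with RLE scaling and with library size alone, and its adjusted p was 0.0759 without the MuLV-int rows. Of the other 15 peaks with the smallest p, 0 were called and 0 reversed under any alternative that tested them.

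The replicate numbers did not pair the libraries: deviations from the group means correlated by 0.064, 0.0125 and 0.0077 for numbers 1 to 3. With the replicate block, 15 of all rows and 0 far intergenic peaks (62 at an unadjusted p under 0.05) passed, and the Dcbld2 adjusted p was 0.0603. Both number 1 libraries correlated best with each other, and those of numbers 2 and 3 did not.

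The median log2 fold change of -0.01 was -0.048 at a mean count of 50, 0.029 without WT replicate 1, 0.0079 with library size alone, and -0.017 to 0.029 over the libraries left out. The difference in share of counts, -0.0067 percentage points, reversed to 0.0028 over rows that pass the filter, to 0.0029 for peaks in no RefSeq gene and beyond 50 kb of every listed start (also added after seeing the data), and ranged from -0.030 to 0.028 with 1 library left out, reversing without WT replicate 1 or CSE-KO replicate 3. The ratio of far to nearer intergenic level stayed at 0.906 to 0.910 with 1 library left out, where the exact permutation p of 0.0625 is the smallest that 5 libraries allow, and at 0.879 to 0.934 with other limits. The cause of these shifts was not tested, apart from the fewer rows or libraries in them.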

Other observations

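The far intergenic peaks were not spread over chromosomes as the table was. Chromosome 13 held 88 of them (8.55%) against 4.86% of all rows, chromosome 12 held 6.22% against 3.89%, and chromosome 18 held 5.05% against 3.11%. Chromosome 11 held 40 (3.89%) against 7.40% of all rows, and X held 10 (0.972%) against 1.61%. Nearer intergenic peaks made up 4.76%, 4.04%, 3.16%, 7.86% and 0.831% on the same chromosomes. No test was made.

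Besides Maml2, 5 protein-coding genes had a promoter window that a far intergenic peak overlapped: 4930522L14Rik, Gm51425, Gm14410, Gm3325 and 5430403G16Rik. They were chosen after their values were seen. At Gm14410 the overlap was 31 bases and did not reach the start. The deposited nearest genes were Gm10416, Zfp960, Gm2004, Zfp808 and Crlf2, at 82.6, 59.0, 205, 114 and 132 kb. The mean levels of the 5 peaks were 49.2, 48.2, 44.2, 29.7 and 24.04 CPM. Their log2 fold changes were 0.0031, -0.06, 0.90, -0.10 and 0.37, with 0 passing adjustment, where 0.0868% of all tested rows passed.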
